A study of Mus musculus with 24 samples.

Results

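The messenger RNAs of the proteins that build plasma lipoproteins were measured in mouse liver for 10 genes: Apoa1, Apoa2, Apoa4, Apoa5, Apob, Apoc1, Apoc3, Apoe, Apom and Mttp. They were taken by gene symbol from the array's annotation and make up 10 of the 18193 genes measured, with 17 of the 34945 probe sets that carry 1 symbol. A probe set is a group of array probes for one transcript, and each gene is represented by its brightest probe set unless another is named. Liver RNA came from 24 male BALB/c mice, 1 Affymetrix array per mouse and 6 mice per diet. All mice were bought at 6 weeks of age and ate a nonpurified diet for 1 week. They then ate the purified diet AIN93G alone (control) or AIN93G with 0.1%, 0.5% or 1.0% quercetin, a plant flavonol, for 14 days. The comparison asks whether dietary quercetin changed the messages of the lipoprotein proteins.

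Lipoproteins are particles that carry fat and cholesterol through blood. The liver assembles very low density lipoprotein (VLDL) around one molecule of apolipoprotein B, which the microsomal triglyceride transfer protein loads with lipid, and it secretes apolipoprotein A-I, on which high density lipoprotein (HDL) forms. Smaller apolipoproteins move between particles and set how fast lipases and receptors clear them.

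Neighbouring genes of the family lie in clusters. In the RefSeq table of assembly GRCm38.p6 the order on chromosome 9 was Apoa1, Apoc3, Apoa4 and Apoa5, followed by Zpr1. On chromosome 7 it was Apoc2, Apoc4, Apoc1 and Apoe, followed by Tomm40. Apoa2 lay on chromosome 1, Mttp on chromosome 3, Apob on chromosome 12 and Apom on chromosome 17.

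The promoter sequences below belong to the pair of genes that varied most between mice, Apoa4 and Apob, and to Apoa1, which shares a cluster with Apoa4 but varied little. Each runs from 250 bases before to 50 bases after the RefSeq start site, on the plus strand of GRCm38.p6, at chr9:46240594-46240893 for Apoa4, chr12:7977427-7977726 for Apob and chr9:46228380-46228679 for Apoa1. Capitals mark matches to 3 motifs searched on both strands: CAAAGNNCA, a core of the type bound by the liver factor HNF4A; TGTTTGC, a core of the type bound by FOXA factors; and TATAAA, the TATA box.
Apoa4: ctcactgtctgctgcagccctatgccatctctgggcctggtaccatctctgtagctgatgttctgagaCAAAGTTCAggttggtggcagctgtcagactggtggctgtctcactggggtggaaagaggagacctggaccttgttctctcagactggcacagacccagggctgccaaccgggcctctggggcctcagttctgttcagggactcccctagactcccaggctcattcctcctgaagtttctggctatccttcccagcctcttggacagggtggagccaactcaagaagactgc
Apob: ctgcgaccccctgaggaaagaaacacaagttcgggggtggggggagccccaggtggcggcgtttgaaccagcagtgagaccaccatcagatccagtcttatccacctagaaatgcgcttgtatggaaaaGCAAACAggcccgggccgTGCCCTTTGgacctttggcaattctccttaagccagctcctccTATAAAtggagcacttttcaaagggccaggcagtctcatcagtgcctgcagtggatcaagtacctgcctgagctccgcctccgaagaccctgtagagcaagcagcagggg
Apoa1: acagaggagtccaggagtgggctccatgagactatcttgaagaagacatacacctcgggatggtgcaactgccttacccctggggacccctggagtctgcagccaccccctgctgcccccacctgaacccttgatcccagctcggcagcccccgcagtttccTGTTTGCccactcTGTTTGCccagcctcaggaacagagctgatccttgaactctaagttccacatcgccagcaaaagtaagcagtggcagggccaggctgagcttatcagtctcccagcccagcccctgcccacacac

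The Apoa4 window held 1 HNF4A-type match, with its first base at -182, counted from the start site. The Apob window held an HNF4A-type match and a FOXA-type match on the minus strand, at -103 and -121, and a TATA box at -60. The Apoa1 window held 2 FOXA-type matches, at -88 and -75. Of the 10 genes 8 had a window in the table, and Apoc1 and Apoc3 are named only. Among these 8, the HNF4A-type core was found for Apoa4 and Apob, the FOXA-type core for Apoa1, Apoa5 and Apob, and TATAAA for Apoa2, Apoa5, Apob and Apoe. Some genes have several windows (3 for Apoe, 2 for Apoa2 and 2 for Apoa5 among these 8), and a gene counted if any of its windows matched. Counted the same way, 7.27% of the 27025 genes in the table held the HNF4A-type core, 5.76% the FOXA-type core and 15.7% the TATA box; of all 32851 windows the shares were 6.36%, 5.07% and 13.6%. A match is a string of letters and not a tested binding site.

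All values below are quantile-normalized log2(intensity + 1), differences are on that scale, each with limma's standard error (SE), and adjusted p-values are Benjamini-Hochberg values over all 18193 genes. Deposited array medians ran between 4.78 and 7.58. Precision is limited by how many arrays each diet has. Arrays correlated with each other at r from 0.9013 to 0.933, so none was a copy of another. On the first principal component 4 arrays stood more than 3 median absolute deviations apart, replicates 4 and 6 of the 0.5% group and replicates 4 and 5 of the 1.0% group. Of the hepatocyte markers 9 of 9 measured lay above the median gene (3.60), between 3.80 for Ass1, a urea cycle gene, and 13.15 for Ttr, the transthyretin gene. Of 8 intestinal markers only Fabp2 (9.93) lay above that median, and Cdh17 was at 0.50. Of the other lists, 2 of 7 pancreatic, 9 of 10 macrophage, 3 of 8 neutrophil, 6 of 8 stellate, 7 of 7 endothelial, 0 of 5 bile duct, 1 of 3 red cell and 0 of 3 adipocyte markers lay above it. None of the markers passed the test in any comparison. In whole liver, fewer cells of a type and less RNA per cell cannot be told apart.

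None of the 10 genes passed the test at any dose. At 0.1% quercetin 0 of 10 passed against control, where 0% of all genes did. At 0.5% it was 0 of 10 against a background of 0.0165%, and at 1.0% 0 of 10 against 0.022%. For the slope over dose 0 of 10 passed (0.0989% of all genes), and for any difference among the diets 0 of 10 (0.181%). Between doses, 0 of 10 passed at 0.5% against 0.1% (0.214% of all genes), at 1.0% against 0.1% (0.253%) and at 1.0% against 0.5% (0.022%). A count of 0 of 10 is near each of these backgrounds and says little about the 10 genes by itself.

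No member had an unadjusted p below the 0.05 threshold in limma in any of these comparisons. Of all genes, 5.11% did at 0.1%, 7.65% at 0.5% and 8.92% at 1.0% against control. The shares were 10.9% for the slope and 9.49% for any diet difference. Between doses they were 10.1% at 0.5% against 0.1%, 9.42% at 1.0% against 0.1% and 6.19% at 1.0% against 0.5%. For 10 genes, a count of 0 is near these shares and does not set the members apart. The smallest unadjusted p against control was 0.231 for Apoa1 at 0.1%, 0.146 for Apom at 0.5% and 0.295 for Apob at 1.0% (limma; adjusted p 0.754 or above for every member at 0.1% and 0.5%, and 0.814 or above at 1.0%). The smallest for the slope was 0.174, for Apob (limma, adjusted p = 0.65). At each dose 4 of 10 members lay above control and 6 below. The members' median difference from control was -0.01 at 0.1%, -0.03 at 0.5% and -0.03 at 1.0%, beside 0.01, -0.02 and -0.01 for all genes. The ranges of the 6 quercetin and 6 control arrays overlapped for all 10 members at every dose. Of all genes, 0.39% had ranges that did not overlap at 0.1%, 0.456% at 0.5% and 0.797% at 1.0%, so overlap in all 10 is near the background too. These dose comparisons share the same 6 control arrays.

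**Figure D1:**
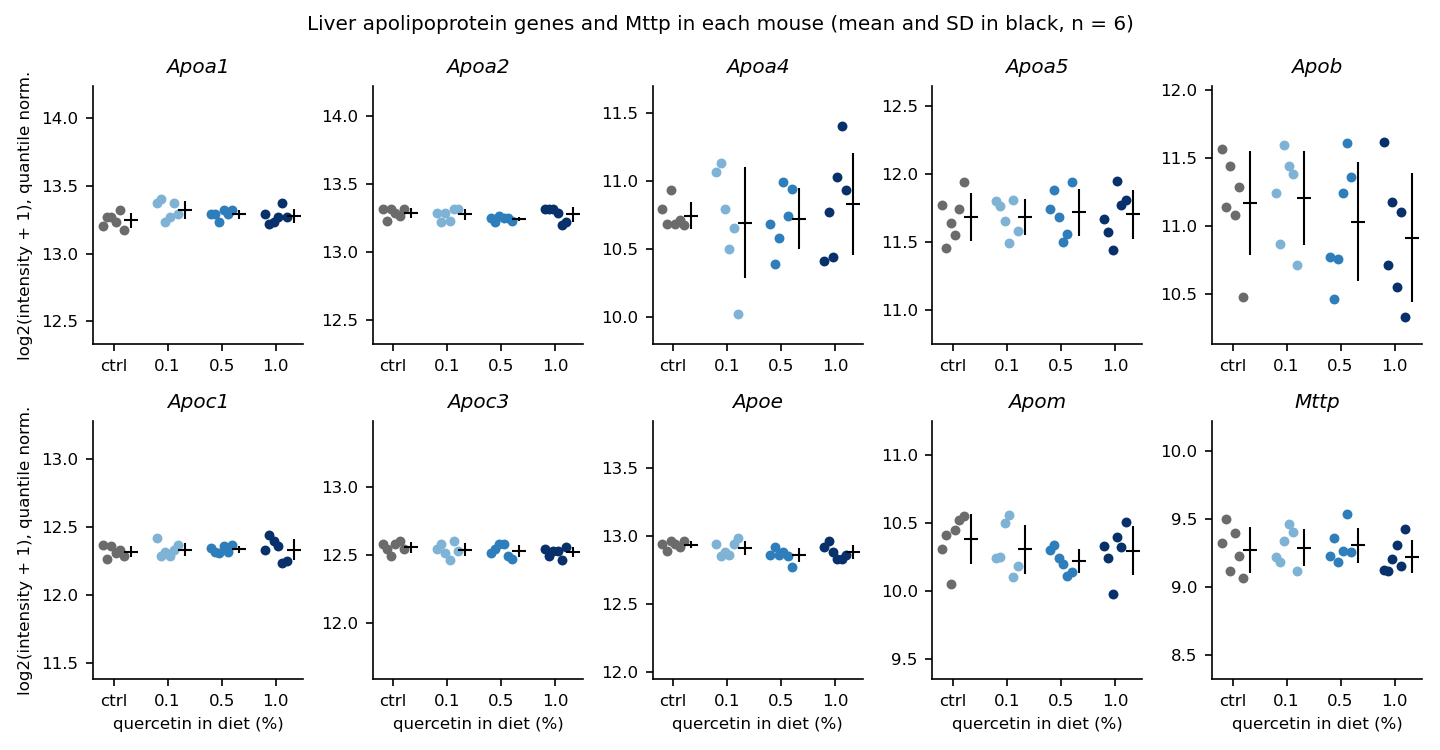
Normalized log2(intensity + 1) of each of the 10 genes in every mouse (points), by quercetin in the diet (percent), with the mean and SD of 6 mice in black; every panel spans the same number of log2 units. Apoa4 and Apob are spread widely within each quercetin group, while Apoa1, Apoa2, Apoc1, Apoc3 and Apoe lie in narrow bands that overlap between diets.

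The assembly of VLDL was represented by Apob and Mttp. Apob encodes the structural protein of VLDL and low density lipoprotein. Its lowest, median and highest values were 10.48, 11.22 and 11.57 in control livers, 10.71, 11.31 and 11.60 at 0.1%, 10.46, 11.00 and 11.61 at 0.5% and 10.33, 10.91 and 11.62 at 1.0%. In deposited intensity the 1.0% livers ran between 1119 and 3739 and the control livers between 1068 and 3706. Every diet thus covered nearly the same wide range, and the highest and lowest of all 24 arrays were both 1.0% livers. The mean was 10.92 ± 0.47 at 1.0% and 11.17 ± 0.38 in control (SD, n = 6 each), a difference of -0.25 (SE 0.23, limma adjusted p = 0.814), and its 95% interval of folds reached 0.599 at its lower end and 1.18 at its upper end. The slope was -0.28 per 1% quercetin (SE 0.20). The order of the diet means was 0.1%, control, 0.5% and 1.0% from high to low, with no neighbours further apart than the spread within diets.

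Apob has a second, far dimmer probe set. Its means were 6.82 ± 0.37 in control, 6.41 ± 0.54 at 0.1%, 6.42 ± 0.45 at 0.5% and 6.22 ± 0.61 at 1.0% (SD, n = 6 each). At 1.0% its difference from control was -0.60 (SE 0.28), with an unadjusted p of 0.0474 and an adjusted p of 0.612 in limma over all probe sets, so it did not pass. It was the only one of the 17 probe sets with an unadjusted p under the threshold at 1.0%. The brighter probe set followed it across the 24 arrays with r = 0.527. Among the alternatives, leaving out 1 array put the 1.0% difference of the brighter Apob probe set between -0.39 and -0.13.

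Mttp encodes the large subunit of the transfer protein that lipidates apolipoprotein B. It had lowest, median and highest values of 9.07, 9.28 and 9.50 in control livers, 9.12, 9.28 and 9.47 at 0.1%, 9.19, 9.26 and 9.54 at 0.5% and 9.12, 9.18 and 9.43 at 1.0%. The 4 diets overlapped almost completely. The 1.0% difference from control was -0.05 (SE 0.095), with folds between 0.843 and 1.11 in the 95% interval. The brightest Mttp probe set and its other probe set did not follow each other over the 24 arrays (r = -0.133), so the differences between mice in Mttp were not shared by both.

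HDL was represented by Apoa1, Apoa2 and Apom. Apoa1 encodes the main structural protein of HDL, which also activates the cholesterol-esterifying enzyme LCAT. Apoa1 values (lowest, median and highest) were 13.17, 13.25 and 13.32 in control livers, 13.23, 13.33 and 13.40 at 0.1%, 13.23, 13.29 and 13.32 at 0.5% and 13.22, 13.27 and 13.37 at 1.0%. The groups overlapped, and the differences from control were 0.08 at 0.1%, 0.05 at 0.5% and 0.03 at 1.0% (SE 0.063 each). With 4 probe sets Apoa1 allowed a check of these small shifts. The other 3 gave differences from control of -0.015, -0.007 and 0.016 at 0.1%, and -0.046, -0.031 and -0.039 at 0.5%. At 1.0% they gave -0.003, -0.006 and 0.007 (SE 0.07 each). They thus did not repeat the positive shifts of the brightest probe set. The brightest was uncorrelated with the other 3 after normalization (r from -0.0156 to 0.0778), although the same pairs ran together in the deposited log2 values (r from 0.921 to 0.927). The other 3 followed each other at r from 0.631 to 0.772.

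Apoa2 encodes another major HDL protein. In Apoa2 these values were 13.23, 13.31 and 13.32 in control livers, 13.22, 13.29 and 13.32 at 0.1%, 13.22, 13.25 and 13.27 at 0.5% and 13.20, 13.31 and 13.32 at 1.0%. The widest difference from control was -0.05 at 0.5% (SE 0.06), which was within the spread between mice. Apom encodes apolipoprotein M, the HDL protein that carries sphingosine 1-phosphate. The lowest, median and highest Apom values were 10.05, 10.43 and 10.55 in control livers, 10.10, 10.25 and 10.56 at 0.1%, 10.11, 10.22 and 10.34 at 0.5% and 9.98, 10.32 and 10.51 at 1.0%. Apom averaged below control at all 3 doses, by 0.16 on the log2 scale at 0.5% (difference -0.16, SE 0.11, fold between 0.767 and 1.04 in the 95% interval). The dimmer Apom probe set did not keep that order: its mean was 9.46 ± 0.06 at 0.1%, against 9.42 ± 0.15 in control (SD, n = 6 each).

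The regulators of triglyceride clearance were Apoa5, Apoc3 and Apoc1. Apoa5 encodes a liver protein that promotes hydrolysis of triglyceride by lipoprotein lipase, and Apoc3 encodes an inhibitor of that hydrolysis and of remnant uptake. Apoa5 had lowest, median and highest values of 11.45, 11.69 and 11.94 in control livers, 11.49, 11.70 and 11.81 at 0.1%, 11.50, 11.71 and 11.94 at 0.5% and 11.44, 11.72 and 11.95 at 1.0%. Apoc3 had 12.49, 12.56 and 12.60 in control livers, 12.46, 12.53 and 12.60 at 0.1%, 12.47, 12.53 and 12.58 at 0.5% and 12.46, 12.53 and 12.56 at 1.0%. These opposing genes both stayed within narrow overlapping ranges. Against control, the 1.0% difference was 0.02 for Apoa5 (SE 0.11) and -0.04 for Apoc3 (SE 0.06).

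Apoc1 encodes a small exchangeable apolipoprotein that hinders receptor uptake of remnants. For Apoc1 the lowest, median and highest values were 12.27, 12.32 and 12.37 in control livers, 12.29, 12.33 and 12.42 at 0.1%, 12.31, 12.33 and 12.37 at 0.5% and 12.24, 12.35 and 12.44 at 1.0%. The differences from control were 0.02 at each dose (SE 0.06). Apoe, its chromosome 7 neighbour, encodes the ligand by which hepatic receptors take up remnants. It had 12.89, 12.94 and 12.96 in control livers, 12.85, 12.91 and 12.98 at 0.1%, 12.77, 12.86 and 12.92 at 0.5% and 12.83, 12.87 and 12.96 at 1.0%. The 0.5% livers lay lowest, with a difference from control of -0.08 (SE 0.06), and the groups overlapped. With arrays scaled to one trimmed mean in place of quantile normalization, this difference was -0.19 (SE 0.09, fold between 0.773 and 0.998 in the 95% interval, limma adjusted p = 0.633), so its interval then left out equality without passing over all genes.

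Apoa4 encodes a protein of chylomicrons and HDL that is made by intestine and, in rodents, by liver. Its lowest, median and highest values were 10.67, 10.70 and 10.93 in control livers, 10.02, 10.72 and 11.13 at 0.1%, 10.39, 10.71 and 10.99 at 0.5% and 10.41, 10.85 and 11.40 at 1.0%. In deposited intensity the 1.0% livers ran between 1167 and 3055 and the control livers between 1246 and 2148. The medians stood close together while the spread was small in control and wider at 0.1% and 1.0%: SD 0.405 at 0.1%, 0.224 at 0.5% and 0.375 at 1.0%, against 0.102 in control (n = 6 each). Whether the spread itself depends on diet was not tested. The difference from control was -0.06 at 0.1%, -0.03 at 0.5% and 0.08 at 1.0% (SE 0.18 each). Without the 4 arrays that stood apart, the 1.0% difference was -0.11 and the 0.5% difference -0.15, so the sign at 1.0% rested on those arrays.

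The second Apoa4 probe set followed the brighter one closely over the 24 arrays (r = 0.945). It gave SDs of 0.553 at 0.1%, 0.251 at 0.5% and 0.515 at 1.0%, against 0.167 in control. The differences between mice in Apoa4 were thus seen by both of its probe sets. This was not so for Mttp, nor for the brightest Apoa1 probe set after quantile normalization. Of the intestinal markers only Fabp2 was above the median gene, and the part of other cell types in the Apoa4 spread was not tested.

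Within the quercetin diets the Apoa4 values separated by replicate number, a pattern noticed after the values were seen. At 0.1% replicates 4 to 6 lay between 10.02 and 10.65 and replicates 1 to 3 between 10.79 and 11.13. At 0.5% replicates 4 to 6 lay between 10.74 and 10.99 and replicates 1 to 3 between 10.39 and 10.68, and at 1.0% they lay between 10.93 and 11.40 and between 10.41 and 10.77. Replicates 4 to 6 were therefore all below replicates 1 to 3 at 0.1% and all above them at 0.5% and 1.0%, while in control the sets overlapped, at 10.67 to 10.71 and 10.68 to 10.93. The dimmer probe set showed no overlap at 0.1% and 1.0% but overlapped at 0.5%, as did the brighter one under trimmed mean scaling.

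Mice were housed 3 per cage, and whether these replicate numbers follow cages was not given in the sources used here. Of all genes, 10.7% had sets that did not overlap in control, 10.7% at 0.1%, 14.1% at 0.5% and 17.2% at 1.0%, and 0.346% had sets apart at all 3 doses. The order seen for Apoa4 was shared by 10 genes (0.055%), the others being 1700042G07Rik, Ccn2, Fam107a, Fbxo30, P2ry2, Plscr1, Ppl, Shtn1 and Tmprss2. Among the 10 lipoprotein genes, sets did not overlap for 1 in control, 1 at 0.1%, 3 at 0.5% and 4 at 1.0%. Under trimmed mean scaling the counts were 4 in control, 1 at 0.1%, 1 at 0.5% and 2 at 1.0%. The shares of all genes under that scaling were not counted. The 4 in control were Apoa2, Apoc1, Apoc3 and Apoe. Their pairs correlated at 0.838 or above under that scaling, so they are not 4 separate observations. The counts thus had no order by dose that held under both scalings. Of the 4 arrays that stood apart, all were in replicates 4 to 6, and their part in the separation at 0.5% and 1.0% was not tested.

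**Figure D2:**
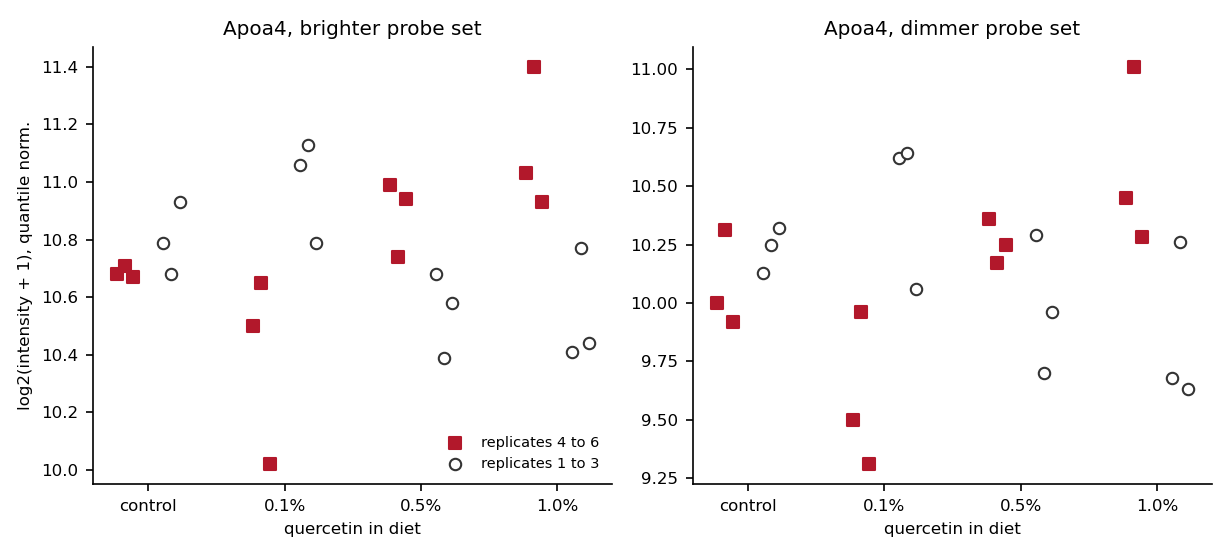
Normalized log2(intensity + 1) of the brighter (left) and dimmer (right) Apoa4 probe set by diet, with replicates 4 to 6 as filled squares and replicates 1 to 3 as open circles. At 0.1% the squares lie below the circles and at 1.0% above them in both panels, while at 0.5% they separate only on the left.

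The size of change that the data leave possible differed between genes. Over the 3 doses the 95% intervals of the 8 members other than Apoa4 and Apob lay between a fold of 0.767 (Apom) and 1.20 (Apoa5). For Apob the intervals reached 0.732 and 1.44 at 0.1%, and 0.65 and 1.28 at 0.5%. At 1.0% the members' lowest bound was 0.599, for Apob, and the highest 1.37, for Apoa4. Differences inside these bounds could not be told from none in these arrays. The bounds are those of each gene's brightest probe set, and dimmer probe sets leave room for larger falls. The dimmer Apob probe set differed from control by -0.60 at 1.0% (SE 0.28), and the dimmer Mttp probe set by -0.16 at 0.5% (SE 0.12).

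**Figure D3:**
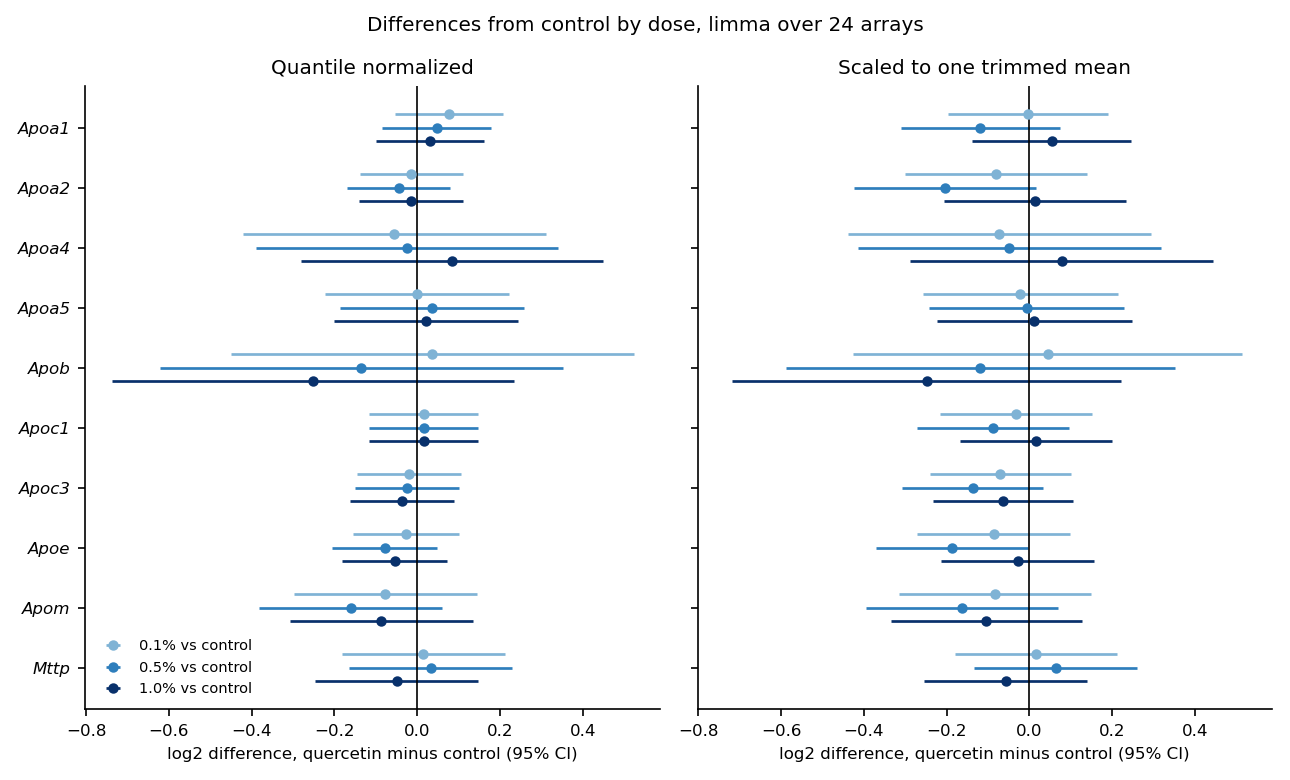
Differences from control in log2 units with 95% intervals for each gene at 0.1%, 0.5% and 1.0% quercetin, after quantile normalization (left) and after scaling to one trimmed mean (right). Intervals are widest for Apob and Apoa4, and all cross 0 except Apoe at 0.5% under trimmed mean scaling.

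The narrow intervals of the brightest genes depended on the normalization. Quantile normalization gives every array the same set of values, and among the 45101 probe sets Apoa1 ranked between 2 and 11 by brightness, Apoa2 between 4 and 10 and Apoe between 21 and 32 over the 24 arrays. The Apoa2 values over 24 arrays took only 7 distinct levels and the Apoa1 values 9. The SD within diets was 0.041 for Apoa2, 0.052 for Apoa1 and 0.045 for Apoe after quantile normalization, against 0.163, 0.133 and 0.124 after trimmed mean scaling. For Apob it was 0.413 and 0.398, and for Apoa4 0.302 and 0.303, close under both. With trimmed mean scaling the intervals of the 8 members other than Apoa4 and Apob still lay between folds of 0.746 (Apoa2) and 1.20 (Mttp). Whether the brightest probes were saturated was not tested.

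**Figure D4:**
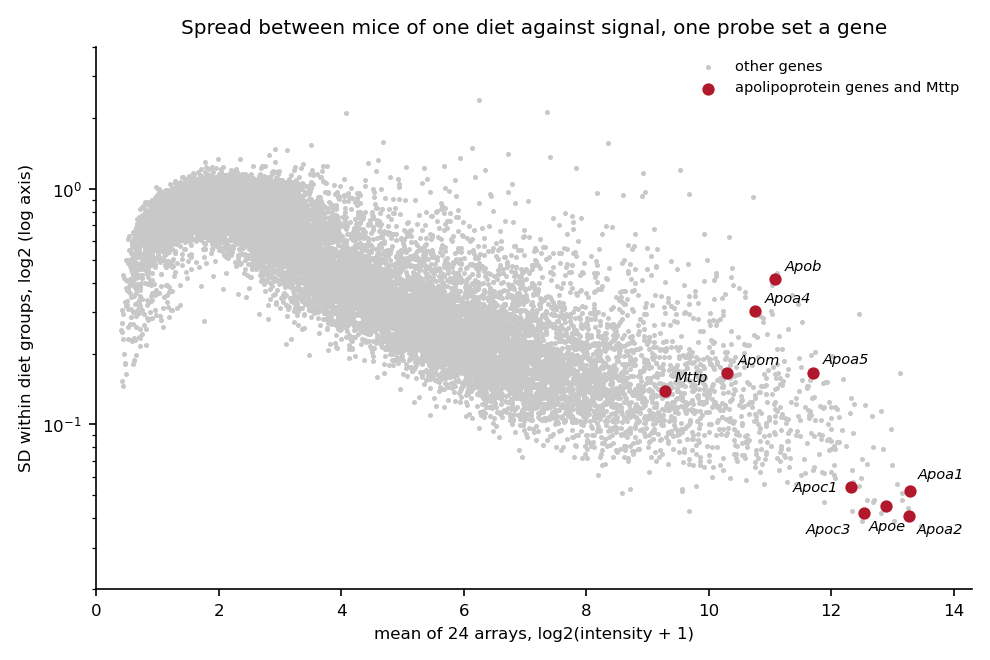
SD within diet groups (log2 units, log axis) against the mean of 24 arrays for each of 18193 genes, with the 10 lipoprotein genes in red. Apob (0.413) and Apoa4 (0.302) stand among the more variable bright genes, and Apoa1, Apoa2, Apoc1, Apoc3 and Apoe lie at the lower right, between 0.041 and 0.054.

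How the members varied together from mouse to mouse depended on the scaling. Over the 45 pairs the correlation of deviations from the diet means ran between -0.532 (Apoa4 with Apoe) and 0.727 (Apoa2 with Apoc1) after quantile normalization, with a median of -0.01. After trimmed mean scaling it ran between -0.58 and 0.978, with a median of 0.154 and 27 of 45 pairs positive. The difference was widest among the brightest genes: the 10 pairs of Apoa1, Apoa2, Apoc1, Apoc3 and Apoe lay between -0.491 and 0.727 after quantile normalization, where their values took few levels, and between 0.838 and 0.978 after trimmed mean scaling. Between adjacent genes on chromosome 9 the quantile values were 0.141 for Apoa1 with Apoc3, -0.105 for Apoc3 with Apoa4 and 0.332 for Apoa4 with Apoa5, and the trimmed mean values 0.854, -0.225 and 0.308. For Apoc1 with Apoe on chromosome 7 they were 0.463 and 0.924. Of the adjacent chromosome 9 pairs, Apoa4 with Apoa5 and Apoc3 with Apoa4 thus stayed weak, with the same sign, under both scalings. Apoa1 with Apoc3 changed most. In the deposited log2 values every pair was positive, between 0.397 and 0.944, and those values still hold each array's overall brightness. The points are 24 arrays, 6 per diet, and the genes of an array share its RNA sample and labelling.

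Among 9086 genes brighter than the median gene, those whose values over the 24 arrays most resembled each member's were mostly outside the lipoprotein pathway. Apob was most like Mpst (r = 0.839), which encodes a mercaptopyruvate sulfurtransferase, then Mocs1 (0.685) and Pzp (0.669). Apoa4 was most like Plet1 (0.769), Slc39a10 (0.764) and Plagl1 (0.745), and Apoe most like Itm2b (0.836), Npc2 (0.819) and Cenpb (0.802). Apoa2 was most like Eefsec (0.772), Bsg (0.767) and Lcat (0.764), the last being the enzyme that esterifies cholesterol on HDL. For Apoc1 the genes were 3110021A11Rik (0.775), Edem2 (0.764) and Nop10 (0.707), and for Mttp Aco1 (0.753), Fbxo22 (0.700) and Ltbp3 (0.688). For Apoa5 they were Ddx27 (0.711), Riok2 (0.650) and Ltv1 (0.642), and for Apom Cyc1 (0.71), Rap1a (0.707) and Ndufa12 (0.669). Apoa1 was nearest to Taf5 (0.675), Cln3 (0.660) and Sgk1 (0.623), and Apoc3 to Ly6g2 (0.675), 2010320M18Rik (0.646) and Pcbp2 (0.635). These correlations were picked as the highest of 9086 per member, use quantile-normalized values and describe these arrays only.

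Around the 10 genes, 5 lists of the lipoprotein pathway held 73 genes, of which 65 were measured. Against control, 0 of 65 passed at 0.1% (0% of all genes), 0 at 0.5% (0.0165%) and 0 at 1.0% (0.022%). For the slope 1 of 65 passed, as lower with dose (0.0989% of all genes passed). Between doses 1 rose at 0.5% against 0.1% (0.214% of all genes passed), 1 fell at 1.0% against 0.1% (0.253%) and 0 passed at 1.0% against 0.5% (0.022%). Whether these counts exceed the shares of all genes was not tested. The called genes, Nr0b2 and Onecut1, both came from the list of transcription factors.

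Among 12 other plasma apolipoproteins and HDL proteins 0 passed the slope, with 6 of 12 slopes positive and a median slope of -0.02 (all genes -0.01). The largest slopes belonged to the serum amyloid A genes, acute phase proteins that ride on HDL: 2.26 per 1% quercetin for Saa2 (SE 0.62, limma adjusted p = 0.139), 1.60 for Saa1 (SE 0.49, adjusted p = 0.192) and 0.59 for Saa4 (SE 0.19, adjusted p = 0.202). Saa2 had lowest, median and highest values of 6.17, 6.54 and 7.25 in control livers, 6.21, 6.93 and 7.96 at 0.1%, 6.47, 8.48 and 11.71 at 0.5% and 7.68, 8.69 and 10.60 at 1.0%. The spread was wider at the higher doses, with SDs of 2.04 at 0.5% and 1.12 at 1.0% against 0.37 in control. The 4 arrays that stood apart held many of the highest values, between 9.46 and 11.71 for Saa2 and between 11.02 and 12.36 for Saa1, against at most 10.18 and 11.51 in the other 20 arrays. Without those arrays the slopes were 1.57 for Saa2 (SE 0.48, limma adjusted p = 0.277), 1.01 for Saa1 (SE 0.40, adjusted p = 0.475) and 0.43 for Saa4 (SE 0.15, adjusted p = 0.413). Of the neutrophil markers 8 of 8 had positive slopes (median 0.51) and none passed. The sum of their normalized linear intensities was at least 125 in each of the 4 arrays and at most 105 in the others. That sum weighs most the brightest markers, S100a9 (mean 4.66) and S100a8 (4.30). At 0.5% 6 of 8 markers lay above control and 2 below, Ngp (-0.13) and Elane (-0.31). The sum therefore does not show that each marker moved with those arrays. By diet that sum lay between 53.3 and 79.5 in control livers, 67.9 and 96.6 at 0.1%, 64.7 and 348 at 0.5% and 77.3 and 151 at 1.0%, with 3 of 8 markers above the median gene and Camp near the floor at 1.03. Their part in the Saa values was not tested. Apoc2, the activator of lipoprotein lipase, had a slope of -0.22 (SE 0.08, adjusted p = 0.256).

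In the list for assembly and secretion of VLDL 0 of 14 measured genes passed the slope, with 7 of 14 positive and a median of -0.02. The smallest p-values were those of Pdia3, a disulfide isomerase gene (slope -0.22), Apobec1, the editing enzyme of Apob mRNA (0.91), Tm6sf2 (-0.35) and Cideb (-0.13), both VLDL lipidation genes, with limma adjusted p from 0.318 to 0.608. In HDL formation and remodelling 0 of 7 passed and 3 of 7 were positive. Its named genes were Bmp1, which cleaves the A-I propeptide (-0.35), the endothelial lipase gene Lipg (-0.72), the phospholipid transfer protein gene Pltp (-0.22) and the HDL receptor gene Scarb1 (0.13), with adjusted p from 0.274 to 0.642. In lipoprotein uptake and lipase control 0 of 11 passed and 3 of 11 were positive, with slopes of -0.13 for Lrpap1, a receptor chaperone, -0.62 for Angptl8 and 0.30 for Angptl4, regulators of lipoprotein lipase, and -0.28 for Lpl, the lipase itself.

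Of the 21 measured transcription factors of apolipoprotein genes, 1 passed the slope (0.0989% of all genes did) and 13 of 21 slopes were positive, with a median of 0.10. Nr0b2, which encodes the corepressor SHP, fell with dose (slope -1.22 per 1% quercetin, SE 0.23, limma adjusted p = 0.0312). Its lowest, median and highest values were 8.54, 9.25 and 9.55 in control livers, 8.69, 9.33 and 9.58 at 0.1%, 7.55, 8.30 and 9.46 at 0.5% and 7.61, 8.10 and 8.43 at 1.0%. In normalized values every 1.0% liver thus lay below every control liver, and 0.797% of all genes had ranges apart in this comparison. In deposited intensity Nr0b2 did overlap, with control replicate 2 at 283.3 and 1.0% replicate 6 at 334. It also fell at 1.0% against 0.1%, with means of 8.05 ± 0.33 and 9.27 ± 0.34 (SD, n = 6 each; limma adjusted p = 0.0371), and against control at 1.0% it did not pass (difference -1.05, SE 0.25, limma adjusted p = 0.263). Onecut1, which encodes the liver factor HNF6, rose at 0.5% against 0.1%, with means of 6.44 ± 0.78 and 3.78 ± 0.54 (SD, n = 6 each; limma adjusted p = 0.0303), while control stood between them at 4.49 ± 0.81.

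Both probe sets of Onecut1 passed when tested separately. These calls were not held in every setting. The Nr0b2 slope passed in 15 of 24 fits that left out 1 array (largest adjusted p = 0.0908) and not without control replicates 1, 3 or 4, 0.1% replicates 1, 2, 4 or 5, or 1.0% replicates 3 or 5. Its adjusted p was 0.0556 without the 4 arrays that stood apart, 0.174 without normalization between arrays, 0.0652 with the replicate block and 0.0595 with sets of 3 replicates as a random effect at their estimated correlation. The Nr0b2 difference between 1.0% and 0.1% passed in 12 of 24 such fits, and not without any 1 of the 1.0% livers, 0.1% replicates 1, 2, 4, 5 or 6, or 0.5% replicate 5. Its adjusted p was 0.0867 with the replicate block and 0.0621 with sets of 3 replicates. The Onecut1 difference passed in 15 of 24, not without 0.1% replicates 1, 2, 3, 5 or 6 or 0.5% replicates 1, 4, 5 or 6, and had an adjusted p of 0.0871 without the 4 arrays and 0.0549 with sets of 3 replicates as a random effect. Hnf4a and Foxa3, which encode factors of the types whose motif letters were searched, did not pass, and they are named after their values were seen. The slope was 0.48 for Hnf4a (SE 0.16, limma adjusted p = 0.237) and 0.96 for Foxa3 (SE 0.29, adjusted p = 0.181). The 4 arrays that stood apart held the 4 highest values of both, between 10.63 and 10.85 for Hnf4a and between 8.51 and 8.82 for Foxa3, against at most 10.20 and 7.46 in the other 20 arrays. Without those arrays the slopes were 0.20 for Hnf4a (SE 0.09, adjusted p = 0.56) and 0.44 for Foxa3 (SE 0.13, adjusted p = 0.266). The other FOXA genes of the list did not share the Foxa3 slope. Over all 24 arrays it was 0.19 for Foxa1 (SE 0.28, limma adjusted p = 0.871) and 0.04 for Foxa2 (SE 0.30, adjusted p = 0.983). No relation between these factors, the motif letters and the lipoprotein genes was tested.

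**Figure D5:**
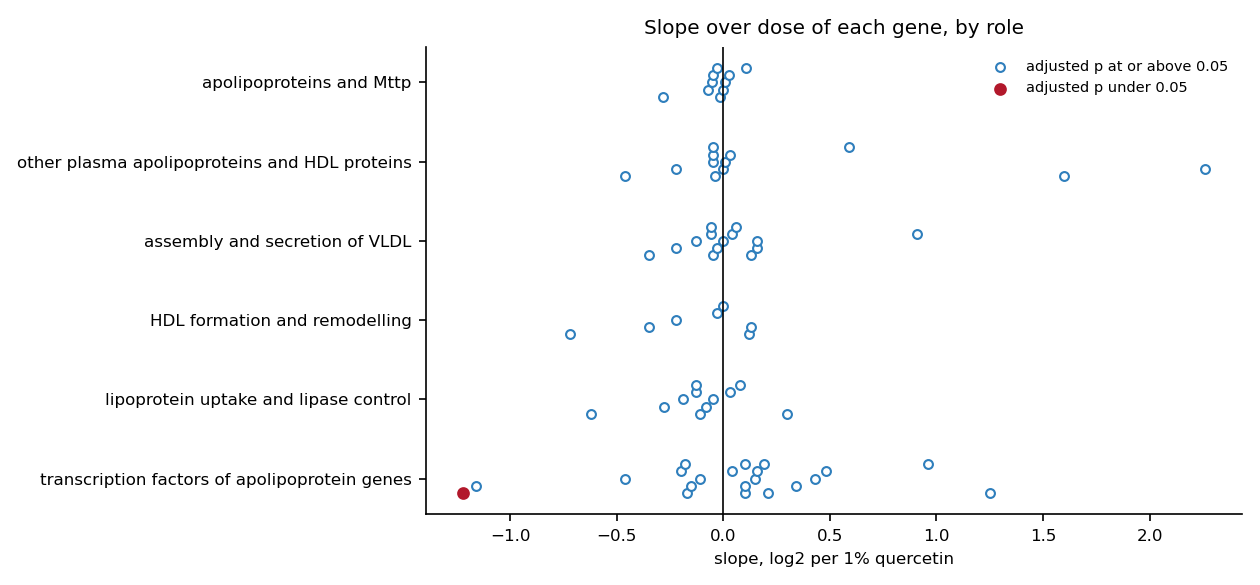
Slope over dose (log2 per 1% quercetin) of each measured gene, for the 10 lipoprotein genes and the 5 lists around them, with filled points for an adjusted p under 0.05. The 10 genes lie between -0.28 (Apob) and 0.10 (Apoa4), Nr0b2 at -1.22 is the only filled point, and Saa2 at 2.26 and Saa1 at 1.60 are the points farthest to the right.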

How the data were processed

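The intensity values of 45101 probe sets are as the authors deposited them, linear and not log-transformed. How these were background-corrected and summarized was not given in the sources used here. Per the labels' protocols, biotin-labelled cRNA of each mouse was hybridized to its own array. Values were taken as log2(value + 1) and quantile normalized, since array medians differed (trimmed means between 24.2 and 44.9, with 2% trimmed at each end). Folds on this scale understate changes of dim genes. Of these, 34945 carry 1 gene symbol in the platform annotation, 932 carry several and 9160 are not listed. The other 64, array controls, were left out. Each gene took its probe set with the highest mean. Genes of the lists with no such probe set were not analysed here.

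All 24 arrays entered each fit in limma 3.58.1 (R 4.3.3). Moderated tests were two-sided, at an adjusted p of 0.05. The fits were tested on simulated data. The 10 genes, the lists and the tests were chosen with earlier results of these data known. Named were all members, list genes passing in any comparison or otherwise up to 4 with the smallest slope p, and the 3 genes most like each member; which neighbours and set patterns to describe was chosen after seeing values. Mice are separate animals; cages were not used. Replicate numbers come from the titles, which do not say whether they pair mice. Between diets, same-numbered arrays had deviations correlated between -0.0641 and 0.111, and 1 of 36 pairs exceeded 0.1. Differently numbered arrays of different diets lay between -0.0986 and 0.172, and 3 of 180 pairs exceeded 0.1. Normalization removes brightness shared by arrays, so these values do not test shared handling by number. From control to 1.0%, deposited trimmed means were 44.94, 39.59, 41.85 and 43.52 for replicate 1. For replicate 6 they were 27.17, 28.3, 36.23 and 35.05. For replicate 2 they were 27.59, 39.37, 38.87 and 24.16, so brightness did not follow replicate number throughout. Alternatives were other normalizations, a pseudocount of 16, every probe set, a filter on dim genes, eBayes with trend, a replicate block, sets of 3 replicates, only the groups compared, and each array left out.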

Additional observations from a re-analysis of the deposited data

Results flagged for a closer look

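Of 40 gene and diet groups examined in quantile-normalized values, 1 held an array flagged as apart from its group. Apoa1 in replicate 3 of the 0.5% group was 13.23, below the other 5 arrays of that diet at 13.29 to 13.32. Its gap to the nearest array was 0.666 of the group's range, above the 95% critical value of Dixon's test for 6 samples. Chance gives such a gap in about 1 of 20 groups, and 1 flag among 40 is no more than that. In deposited intensity this array was 10070, inside its group's range of 9508 to 10580. The normalized Apoa1 values took only 9 levels, with ties, so the critical value is a rough guide here. The other Apoa1 probe sets did not place this array lowest in its group.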

How the results depend on the processing

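The number of the 10 genes passing was 0 in every comparison, both between diets and over dose, under all 12 alternative settings and in all 24 fits that left out 1 array (lowest and highest count 0). With the replicate number as a block 0 of the 10 genes passed, and their smallest adjusted p was 0.602 (limma). No lipoprotein gene had a call to lose. With this block the calls of Nr0b2 were lost, while Onecut1 kept its call (limma adjusted p = 0.0255). The Nr0b2 slope passed in 7 of 11 settings, its difference between 1.0% and 0.1% in 5 of 12 and the Onecut1 difference in 10 of 12. Over the 12 settings 48 of 470 differences and slopes changed sign and 0 passed (smallest adjusted p = 0.479, limma). Of these 17 came without normalization between arrays, 11 with arrays centred on medians, 8 with trimmed mean scaling, 7 with cyclic loess and 5 without the 4 arrays that stood apart, a setting chosen after the data were seen. Leaving out 1 array changed the sign of 43 of 960 values, with a smallest adjusted p of 0.406. Without normalization the median log2 difference of all genes from control was 0.11 in the 0.1% group, 0.15 in the 0.5% group and 0.05 in the 1.0% group. Sets of 3 replicates had a consensus correlation of 0.0445 for groups and 0.0565 for the slope. Apob and Apoa4 had the widest intervals of the 10 genes and also the largest spread between mice. The intervals of the brightest genes differed by scaling. For Apoa2 the SE was 0.060 under quantile normalization and 0.106 under trimmed mean scaling. limma's moderated SE also draws on the spread of all genes.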
